A study of Avena sativa with 108 samples.

Results

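The vicilin-like 7S globulin genes of oat (Avena sativa) were chosen by their names: 11 of the 68572 genes in the deposited count tables carried a protein match whose description held the words vicilin, globulin-1, 63 kDa globulin or cupincin. The rule itself used no expression value, though earlier results of these data were known when it was set. 10 of the 11 were matched to storage globulins of 4 kinds. 3 genes, 4Ag0001105, 4Dg0001463 and 7Cg0001208, were matched to the 63 kDa globulin-like protein of rice, a vicilin-like seed globulin. Another 3, 4Ag0001758, 4Dg0002113 and 7Cg0000535, were matched to cupincin, a rice bran protein of the same family for which protease activity has been described. A further 3, 5Ag0000701, 5Dg0000311 and 4Cg0002993, were matched to the Arabidopsis vicilin-like storage protein At2g28490, and 1 gene, 1Dg0003136, to its relative At2g18540. The identifiers give the chromosome (4A, 4D and 7C, for example), so each of the first 3 kinds has 1 copy in the A, 1 in the D and 1 in the C subgenome. The 11th gene, 1Dg0002926, was matched to Plastoglobulin-1 of pea, a protein of chloroplast lipid bodies whose name only happens to contain the search term. It is no storage globulin by its description, and it is described separately at the end. Positions in the genome and sequences were not analysed here.

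Vicilin-like globulins form the 7S class of seed storage proteins, trimers of the cupin fold that are laid down in protein storage vacuoles during seed maturation and broken down after imbibition to supply amino acids. In cereal grains they are best known from the embryo and the aleurone, whereas the storage proteins of the starchy endosperm of oat are mainly 12S globulins and prolamins. Their genes are typical targets of the abscisic acid and B3-factor programme of seed maturation (VP1, FUS3 and ABI5 type regulators).

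RNA-seq libraries came from 2 Canadian spring cultivars, CDC Morrison and AC Morgan, with no treatment compared between groups. The glasshouse plants came from fungicide-treated seed and were fertilized. The developing-grain set held 48 libraries of whole grain at 5, 10, 15, 20, 25, 30, 35 and 40 DPE (days post emergence of the panicle), 3 replicates for each cultivar and day, each a pool of 10 grains without glumes from 1 panicle of glasshouse plants. The germination set held 60 libraries of embryo and of endosperm at 0, 3, 6, 24 and 48 h on wet filter paper in a growth chamber, again 3 per cultivar, tissue and time, where 0 h is the dry grain. For that set the sources used here do not say how far replicates were separate grain lots, so its p-values measure the spread between samples, which may be technical, nor do they say whether the aleurone stayed with the endosperm.

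Levels are CPM, counts brought to a common library size with TMM factors for composition, and each set was scaled on its own. CPM is not corrected for gene length, so levels are compared between samples and never between genes. Differences are log2 fold changes with their standard errors (SE) from 1 edgeR quasi-likelihood fit per set, and a gene was called where its p, adjusted by Benjamini-Hochberg over all genes tested, was under 0.05. All 11 genes passed the filter on low counts in both sets. The libraries of developing grain totalled 2184611 to 30846412 counts, those of germination 3895703 to 39871377. Replicate 1 of CDC Morrison at 10 DPE stood apart: it had the lowest total, the authors' normalized table also lacks it, and the 10 storage globulin genes summed to 3135 CPM by library size there, against 1.99 and 2.42 in replicates 2 and 3. It was left out of the fit, so 47 libraries were used. In germination, replicate 1 of CDC Morrison was lower than its partners in embryo at 0, 3, 6 and 24 h, and the endosperm libraries of that cultivar spread widely at 0 h and 48 h.

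The first question was when the storage globulin genes come on in the developing grain. In the 47 libraries used they were close to absent at 5 and 10 DPE and present at 15 DPE. At 25 DPE they took 1.88 to 3.74% of all counts in CDC Morrison libraries and 0.807 to 1.26% in AC Morgan libraries. Summed over the 10 genes, CDC Morrison grain averaged 6.08 CPM at 5 DPE, read 1.42 and 1.79 CPM at 10 DPE, and reached 4593, 2469 and 10316 CPM at 15 DPE. AC Morgan grain averaged 8.51 CPM at 5 DPE, read 0.744, 0.907 and 4.75 CPM at 10 DPE, and reached 1982, 1651 and 722 CPM at 15 DPE. Among the 47 libraries used, none of 15 DPE overlapped with any of 5 or 10 DPE in either cultivar. The library left out, CDC Morrison 10 DPE replicate 1, read 3135 CPM by library size. On that scale the CDC Morrison libraries of 15 DPE read 2619, 1551 and 6626 CPM, so it lay within their range. All 10 genes were called higher at 15 than at 5 DPE over the mean of both cultivars, where 23.2% of all genes tested were called higher. Since grain was sampled whole, more globulin-expressing cells and more globulin RNA per cell cannot be told apart.

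The size of this rise was between 7.67 ± 0.77 (4Dg0001463) and 10.57 ± 0.50 (5Ag0000701) on the log2 scale (SE; edgeR adjusted p = 2.681e-10 and 1.404e-18) among the 9 genes that had counts in both cultivars at 5 DPE. 4Cg0002993 had none in CDC Morrison at 5 DPE and no fold is given for it. At 15 DPE its CDC Morrison libraries read 10.7, 14.2 and 26.9 CPM, its AC Morgan libraries 102, 10.5 and 3.37 CPM. A single AC Morgan library was thus far above the others for this gene.

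From 15 to 25 DPE 9 of the 10 genes rose further, against 17.1% of all genes called higher. The 3 copies of the 63 kDa globulin rose by 2.99 to 3.46 and the 3 cupincin copies by 2.84 to 3.14, while 1Dg0003136 and the 5A and 5D copies of the At2g28490 kind rose by 1.34 to 1.74 (log2; edgeR adjusted p from 4.39e-05 to 0.003183 over the 9 genes). In CDC Morrison, 4Dg0001463 reached 6268, 4478 and 9350 CPM at 25 DPE, against 632, 239 and 1355 CPM at 15 DPE. In AC Morgan it reached 1723, 2785 and 2122 CPM at 25 DPE, against 173, 229 and 92.2 CPM at 15 DPE. All libraries of 25 DPE were above all libraries of 15 DPE within each cultivar for this gene. Within CDC Morrison 8 of the 10 were called, against 10.9% of all genes, and 1Dg0003136 was not (0.91, adjusted p = 0.2083). With all 48 libraries in the fit 1Dg0003136, 5Ag0000701 and 5Dg0000311 were not called (adjusted p = 0.1725, 0.07627 and 0.06288). 4Cg0002993 was not called (0.90 ± 0.49, edgeR adjusted p = 0.1683), and without AC Morgan 15 DPE replicate 1 its difference was 2.14 (adjusted p = 0.0002208).

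**Figure D1:**
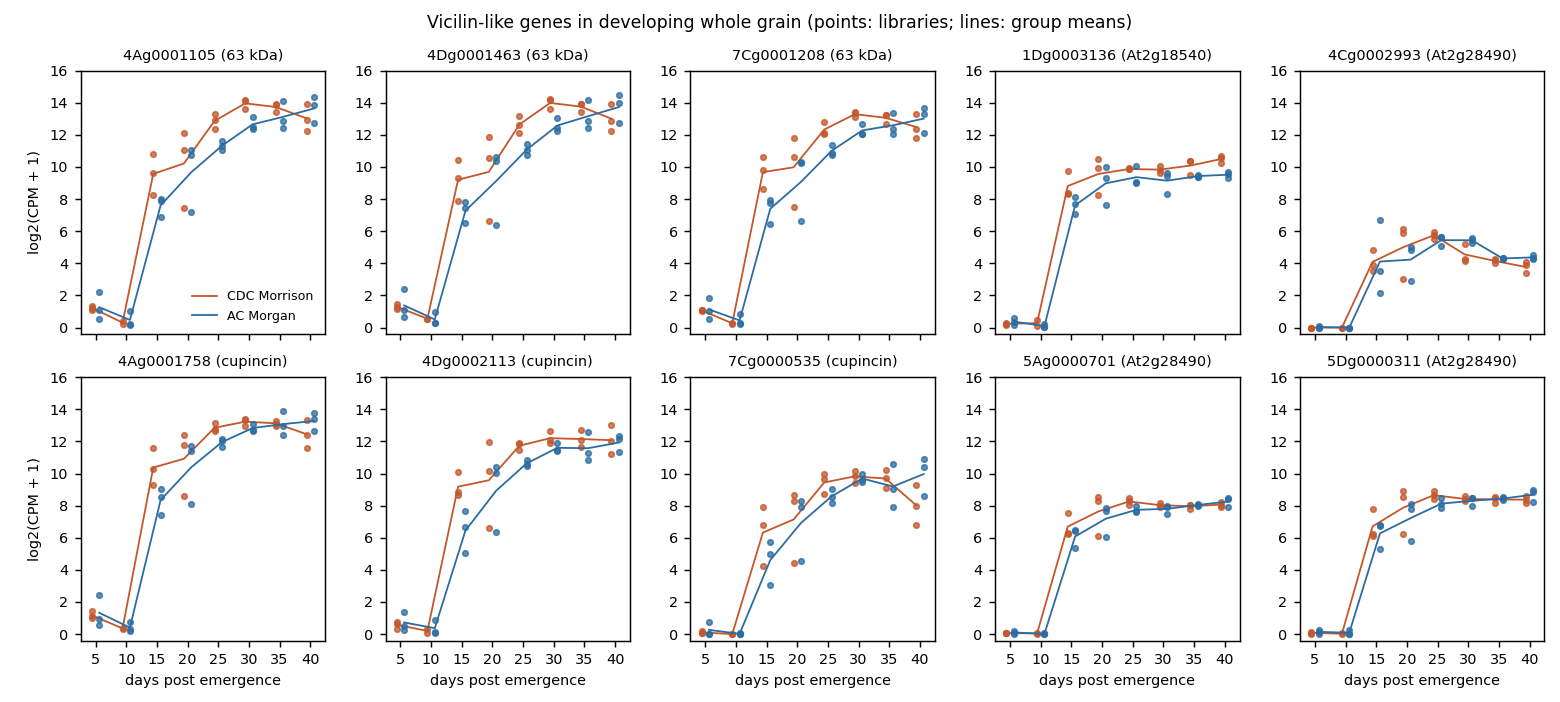
Level of each of the 10 storage globulin genes in whole developing grain, as log2(CPM + 1), against days post emergence. Points are libraries of CDC Morrison and AC Morgan (3 per day, 2 for CDC Morrison at 10 DPE) and lines join group means. All genes are near 0 at 5 and 10 DPE and high from 15 DPE on, and at 20 DPE 1 library of each cultivar lies well below the other two.

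The spread within days was wide on the way up. At 20 DPE the CDC Morrison libraries read 23870, 1412 and 11969 CPM for the sum and the AC Morgan libraries 1030, 11454 and 9348 CPM, so that 1 of 3 libraries in each cultivar was far below its partners. That of CDC Morrison lay below all 3 of its 15 DPE libraries, and that of AC Morgan within the range of its own. In the 4Ag0001105 panel these are the points at 175 CPM (CDC Morrison replicate 2) and 145 CPM (AC Morgan replicate 1), against 4504 and 2127 CPM and 2142 and 1740 CPM in the partners. With the groups ordered by their mean summed level, 11 of the 15 neighbouring pairs overlapped. In the other 4 pairs the libraries of the paired groups did not overlap. The first was AC Morgan at 10 DPE with CDC Morrison at 5 DPE. The rest were AC Morgan at 5 and 15 DPE, both cultivars at 15 DPE, and AC Morgan at 25 and 30 DPE. Libraries of other groups could still lie between. AC Morgan 5 DPE replicate 1 (5.19 CPM) lay within the first gap, and CDC Morrison 20 DPE replicate 1 (23870 CPM) within the last.

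Between 25 and 40 DPE 3 of the 10 genes were called higher and 1 lower. The summed level had its highest mean at 30 DPE in CDC Morrison (59787 ± 8523 CPM, SD, n = 3) and at 40 DPE in AC Morgan (55622 ± 24167 CPM, n = 3). By then the 10 genes took 2.15 to 5.93% of all counts in the CDC Morrison libraries and 3.17 to 7.43% in the AC Morgan libraries of 40 DPE. The genes called higher at 40 than at 25 DPE were the 3 copies of the 63 kDa globulin, where 26.7% of all genes were called higher and 34.8% lower. Their differences were 1.36 ± 0.57 for 4Ag0001105, 1.62 ± 0.59 for 4Dg0001463 and 1.19 ± 0.51 for 7Cg0001208 (edgeR adjusted p = 0.03752, 0.01645 and 0.04181). Within AC Morgan the differences were 2.45, 2.79 and 2.11 (adjusted p = 0.01507, 0.007866 and 0.01725), within CDC Morrison 0.28, 0.46 and 0.26 (0.8025, 0.6643 and 0.7943), and no copy was called without CDC Morrison 40 DPE replicate 3 (1.07, 1.34 and 0.93, adjusted p = 0.1169, 0.05597 and 0.1259). 4Ag0001105 and 7Cg0001208 also lost their call when any of 6 other libraries of these days was left out.

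The gene that fell was the C copy of the At2g28490 kind. 4Cg0002993 stood at 13.8, 9.37 and 15.6 CPM at 40 DPE in CDC Morrison, against 62.2, 44.3 and 53.6 CPM at 25 DPE, and at 18.4, 22.2 and 18.8 CPM at 40 DPE in AC Morgan, against 32.1, 49.6 and 48.4 CPM at 25 DPE. The libraries of the 2 days did not overlap in either cultivar, and the difference was −1.59 ± 0.50 (edgeR adjusted p = 0.007026). Within the cultivars it was −2.05 in CDC Morrison (adjusted p = 0.01907) and −1.13 in AC Morgan (0.184). The other 2 copies of this kind did not pass the test (0.16 ± 0.30 for 5Ag0000701 and 0.14 ± 0.36 for 5Dg0000311, adjusted p = 0.6644 and 0.7707). At 40 DPE the 5D copy averaged 333 ± 57.1 CPM over CDC Morrison libraries and 420 ± 102 CPM over those of AC Morgan (SD, n = 3 each). Likewise 1Dg0003136 (0.36 ± 0.35) and the cupincin copies (0.23 to 0.93) were not called between these days.

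The other storage and maturation genes, listed by their descriptions, were tested over the same intervals. From 5 to 15, 15 to 25 and 25 to 40 DPE 23.2, 17.1 and 26.7% of all genes were called higher and 27.4, 15.2 and 34.8% lower. Of 41 tested genes for 12S globulins 35 were higher at 15 than at 5 DPE, 1 was higher and 6 lower at 25 than at 15 DPE, and 37 were lower at 40 than at 25 DPE (median change −4.69, against −0.20 over all genes). Of 23 prolamins, 19 were higher at 15 DPE, 1 was higher at 25 than at 15 DPE, and 20 were lower at 40 DPE (median −3.57). Oleosins coat the oil bodies of embryo and aleurone, and 9 of 9 were higher at 15 than at 5 DPE, 8 of 9 at 25 than at 15 DPE and 3 of 9 at 40 than at 25 DPE. Genes for LEA proteins, which accumulate as seeds dry, were called higher in 23, 19 and 10 of 28 cases over the 3 intervals. Of the 12 maturation regulators 6, 1 and 1 were higher and 1, 3 and 6 lower. Between 25 and 40 DPE the medians were thus 0.46 for the 10 storage globulins, 0.57 for oleosins and 1.06 for LEA genes.

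Marker genes of other tissues moved over the same days. The 32 markers of starchy endosperm (avenins, gliadin and hordein types and puroindolines) summed to 109140 to 190130 CPM at 25 DPE and to 3335 to 17125 CPM at 40 DPE over the 6 libraries of each day, and the 72 chlorophyll a-b binding genes, a mark of green tissue, to 37.9 to 206 CPM and 5.80 to 11.1 CPM. Since CPM is relative to all RNA in the sample, the part of these shifts in the storage globulin values was not tested.

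The second question was whether the cultivars differ. In developing grain few differences of the storage globulin genes passed the test. The fitted level was higher in CDC Morrison for 9, 10, 10 and 9 of the 10 genes at 15, 20, 25 and 30 DPE. At 5, 10, 35 and 40 DPE it was higher for 0, 3, 6 and 2. The unadjusted edgeR p was under 0.05 for 7 of the 10 at 15 DPE, 1 at 40 DPE and none on the other days. Summed levels of the cultivars did not overlap at 15, 25 and 30 DPE, and did on the other days. At 25 DPE they were 26362 to 42080 CPM in CDC Morrison and 11455 to 16547 CPM in AC Morgan. Over 80 comparisons of a gene on a day (10 genes, 8 days) 1 was called, where 9.65, 25.7, 9.41, 13.4, 9.64, 36.2, 12.7 and 12.9% of all genes were called on the 8 days in order. DESeq2 called 5 of the 80, limma on the deposited values 2 and edgeR with the replicate number as a block none. The 1 called was 7Cg0001208 at 15 DPE, where the CDC Morrison libraries read 897, 395 and 1548 CPM and the AC Morgan libraries 216, 249 and 87.3 CPM (2.36 ± 0.74, edgeR adjusted p = 0.03623), on a day when 4.24% of all genes were called higher. It was no longer called when any 1 of 5 of these 6 libraries was left out (adjusted p 0.0617 to 0.2098). The other 63 kDa and cupincin copies differed by 2.01 to 2.55 on that day and were not called (adjusted p 0.06102 to 0.1996). Averaged over the 8 days, 1Dg0003136 was higher in CDC Morrison by 0.70 ± 0.22 (edgeR adjusted p = 0.01121), where 16.9% of all genes were called higher, and DESeq2 called 2 of the 10 genes. At 40 DPE its CDC Morrison libraries read 1201, 1643 and 1525 CPM and its AC Morgan libraries 646, 744 and 825 CPM, with no overlap. Without CDC Morrison 10 DPE replicate 3, when this gene was near 0 (0.382 CPM), the averaged difference was 0.49 (adjusted p = 0.2573). None of the 10 genes was called in the edgeR test of whether the cultivar difference changes with day (lowest adjusted p 0.2084, none with an unadjusted p under 0.05), where 27.6% of all genes were called.

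In dry grain embryo and endosperm were sequenced apart. The storage globulin transcripts were present in both, and most were less abundant in embryo. Summed over the 10 genes, dry CDC Morrison embryos held 4908, 29422 and 27573 CPM, against 23263, 55354 and 239787 CPM in dry CDC Morrison endosperm. Dry AC Morgan embryos held 26217, 32309 and 21217 CPM, against 123388, 149525 and 134424 CPM in dry AC Morgan endosperm. The tissues did not overlap in AC Morgan, and in CDC Morrison the lowest endosperm library lay below the 2 highest embryo libraries. Before scaling, the genes took 0.527 to 2.82% of the counts in CDC Morrison embryo and 1.83 to 13.8% in CDC Morrison endosperm, and 2.28 to 3.23% in AC Morgan embryo and 9.46 to 10.4% in AC Morgan endosperm.

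6 of the 10 genes were called lower in dry embryo than in dry endosperm, against 16.1% of all genes. Within AC Morgan alone 4 of the 10 were called, and within CDC Morrison alone also 4. The 63 kDa copies differed by −2.90 ± 0.60 (4Ag0001105), −2.69 ± 0.58 (4Dg0001463) and −2.52 ± 0.54 (7Cg0001208), and 1Dg0003136 by −1.51 ± 0.35 (edgeR adjusted p = 0.0001207, 0.0002115, 0.0001972 and 0.0004298). In AC Morgan, 1Dg0003136 stood at 303, 400 and 344 CPM in dry embryo and at 940, 1062 and 891 CPM in dry endosperm. The A and D copies of cupincin were also called (−1.61 ± 0.59 and −1.74 ± 0.60, adjusted p = 0.02615 and 0.01761), but neither was without CDC Morrison endosperm 0 h replicate 3 (−1.04 and −1.05, adjusted p = 0.1747 and 0.1683) or without CDC Morrison embryo 0 h replicate 1 (−1.38 and −1.51, 0.07302 and 0.05191). Within each cultivar alone neither copy was called (edgeR adjusted p 0.1109 to 0.193). 4Ag0001758 was also not called without AC Morgan embryo 0 h replicate 3 (−1.57, 0.05336). With limma on the deposited values all 10 genes were called between the dry tissues. The 3 copies of the At2g28490 kind were not called, at −0.51 to −0.68. AC Morgan had 457, 541 and 444 CPM of 5Dg0000311 in dry embryo and 522, 723 and 605 CPM in dry endosperm, with overlapping libraries.

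Dissected embryo carried transcripts that mark starchy endosperm. The reverse could not be judged, since the sum of the embryo markers did not separate the dry tissues. The 32 starchy endosperm markers summed to 1546 to 6479 CPM in dry embryo, with at most 1 of the 32 at 0 in a library, and to 38741 to 76565 CPM in dry endosperm, and 28 of them were called lower in embryo, against the 16.1% above. The 22 markers of embryo axis and meristem (knotted-1-like, WUSCHEL-related and PLETHORA types) summed to 116 to 147 CPM in dry embryo and 136 to 226 CPM in dry endosperm, so that their sum did not separate the tissues at 0 h, though 9 of 21 tested were called higher and 4 lower in embryo, where 22.5% of all genes were called higher. The oleosins, at 4118, 4734 and 23884 CPM in dry CDC Morrison endosperm, were highest in the same library as the storage globulins. Whether RNA of 1 tissue in the other moved the storage globulin values was not tested. At 48 h the separation was clear, with 16.9 to 41.2 CPM of the starchy endosperm markers in embryo and 7157 to 15847 CPM in endosperm, and 63 of 64 chlorophyll a-b binding genes higher in embryo, against 35.8% of all genes.

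The third question was how the levels of the storage globulin transcripts change in each tissue once the grain is wet. CPM is relative to all RNA in the sample, so loss of these transcripts and change in other RNA were not separated. In the embryo all 10 genes fell within 6 h, and the summed level was low at 24 h. CDC Morrison embryos kept on average 65.4% of their dry-grain summed level at 3 h, 10.9% at 6 h, 0.410% at 24 h and 0.436% at 48 h. AC Morgan embryos kept 50.4%, 23.7%, 0.742% and 0.277% at the same times. In CDC Morrison the 6 h value was 6.91% without replicate 2 of 6 h, and the 24 h value 0.266% without replicate 2 of 24 h. Of the 10 genes 1Dg0003136 kept the most in AC Morgan embryo at 24 h, 9.81% of its dry level. For 4Ag0001105 in AC Morgan embryo the libraries read 6030, 7621 and 4459 CPM at 0 h, 858, 1147 and 1431 CPM at 6 h and 12.9, 9.94 and 7.86 CPM at 24 h. No library of 1 of these times overlapped with those of another.

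All 10 genes fell in embryo between 0 and 6 h, where 20.2% of all genes were called lower, with log2 fold changes of −2.26 ± 0.41 (5Dg0000311) to −3.76 ± 0.34 (4Cg0002993) and edgeR adjusted p of 1.546e-05 and 3.615e-12. Within AC Morgan alone 6 of the 10 passed, against 7.76% of all genes, and all 3 cupincin copies and 5Dg0000311 did not (−1.56 to −1.83). All 10 fell again between 6 and 48 h, against 26.7% of all genes, with changes of −3.16 ± 0.38 (1Dg0003136) to −7.44 ± 0.69 (7Cg0001208). Within CDC Morrison 8 of the 10 were called, against 21% of all genes, and 1Dg0003136 and 4Cg0002993 were not (4Cg0002993 −1.42, adjusted p = 0.06584). Over the whole 48 h the changes ranged from −5.61 ± 0.42 for 1Dg0003136 to −10.20 ± 0.77 for 7Cg0001208 (adjusted p = 4.764e-16 and 6.521e-16), where 27.7% of all genes were called lower.

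The gene with the smallest change, 1Dg0003136, had cultivars that did not overlap at the end, a difference that was not tested. In AC Morgan embryo it stood at 54.6, 24.7 and 23.4 CPM at 24 h and at 1.58, 1.64 and 1.84 CPM at 48 h. In CDC Morrison embryo it stood at 2.38, 13.8 and 21.1 CPM at 24 h and at 68.4, 13.5 and 35.7 CPM at 48 h. All 3 CDC Morrison embryo libraries were thus above all 3 of AC Morgan at 48 h, and replicate 1, the lowest at 24 h, was the highest at 48 h. The change from 6 to 48 h was −0.30 ± 0.48 within CDC Morrison (edgeR adjusted p = 0.6418). The A and D copies of the At2g28490 kind were highest in the same library: 5Ag0000701 had 5.66, 0.596 and 1.23 CPM in CDC Morrison embryo at 48 h and 0.149, 0.274 and 0.136 CPM in AC Morgan embryo, and 5Dg0000311 had 5.89, 0.779 and 1.93 CPM against 0.0990, 0.0913 and 0.614 CPM. In that library 4Ag0001105 had 3.52 CPM and 4Ag0001758 2.71 CPM, the lowest of the 3 CDC Morrison libraries for both.

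**Figure D2:**
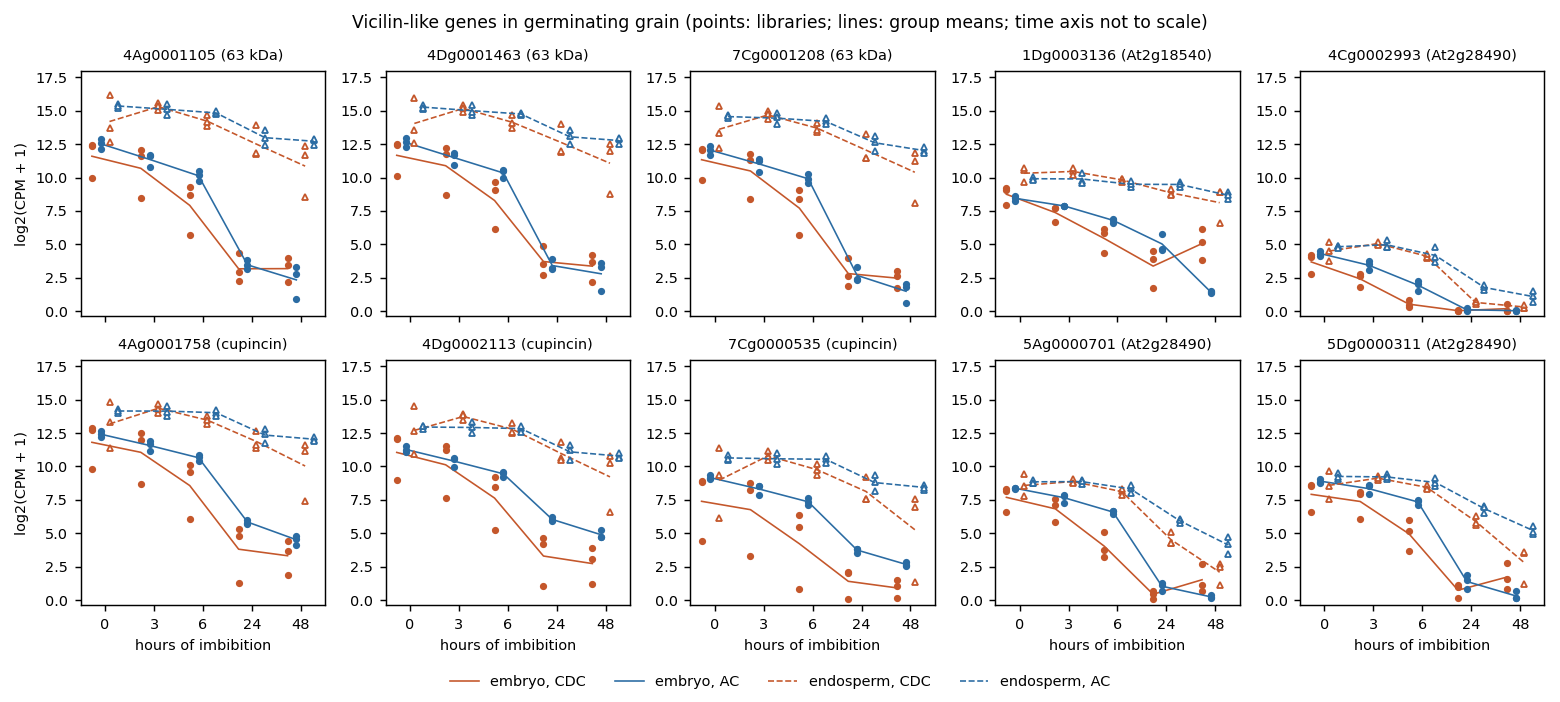
Level of each of the 10 storage globulin genes in germinating grain, as log2(CPM + 1), at 0, 3, 6, 24 and 48 h (axis not to scale). Filled points are embryo and open triangles endosperm libraries, 3 per group, and lines join group means (solid for embryo, dashed for endosperm). Embryo values are lower at 6 h and lower again at 24 h, while endosperm values at 6 h lie near those at 0 h and stay well above embryo at 48 h for the 63 kDa and cupincin genes.

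In the endosperm the summed CPM stayed higher relative to dry grain than in the embryo. CDC Morrison endosperm had 136% of its dry-grain mean at 3 h, 69.0% at 6 h, 26.2% at 24 h and 11.1% at 48 h. This base rested on replicate 3 of dry endosperm, and without it the 4 values were 367%, 186%, 70.7% and 30.0%. Without replicate 3 of 24 h the 24 h value was 14.5%, and without replicate 3 of 48 h the 48 h value was 7.19%. AC Morgan endosperm had 90.5%, 75.9%, 24.3% and 18.3%. None of the 10 genes was called between 0 and 6 h (−0.21 to −0.60, lowest edgeR adjusted p 0.3261, none with an unadjusted p under 0.05), where 3.91% of all genes were called in either direction. limma on the authors' normalized values called 1 of the 10, and edgeR without the replicate 1 libraries of CDC Morrison called 2. Between 6 and 48 h all 10 fell, against 24.8% of all genes called lower (10 of 10 against 21% within CDC Morrison, 6 of 10 against 18% within AC Morgan).

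The fitted fall in endosperm was of unequal size among the kinds, which was not tested as a difference. Between 6 and 48 h the log2 fold changes were −4.54 ± 0.46 to −5.16 ± 0.41 for the 3 copies of the At2g28490 kind, −2.22 to −2.44 for the 63 kDa copies, −2.33 to −2.61 for the cupincin copies and −1.11 ± 0.34 for 1Dg0003136 (edgeR adjusted p from 1.113e-14 to 0.005835). In AC Morgan endosperm, 5Dg0000311 stood at 522, 723 and 605 CPM at 0 h, 371, 427 and 560 CPM at 6 h and 29.7, 45.2 and 33.9 CPM at 48 h. In the same libraries, 4Ag0001105 stood at 37211, 47055 and 41825 CPM at 0 h, 26937, 28969 and 31851 CPM at 6 h and 7337, 7588 and 5439 CPM at 48 h. So 5Dg0000311 kept 5.88% of its dry-grain mean and 4Ag0001105 16.2% at 48 h, and 1Dg0003136 kept 42.4%, in this cultivar. In CDC Morrison endosperm, replicate 1 of 48 h was the lowest for every kind, with 94.1 CPM of 1Dg0003136 against 474 and 475 CPM in its partners, and 364 CPM of 4Ag0001105 against 3370 and 5158 CPM.

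The fall over 48 h was steeper in embryo than in endosperm for all 10 genes when the difference itself was tested. The embryo change minus the endosperm change was −7.36 ± 0.82 for 7Cg0001208, the largest, and −2.42 ± 0.77 for 4Cg0002993, the smallest (edgeR adjusted p = 7.847e-10 and 0.01147), where 19.6% of all genes were called lower. The 63 kDa copies differed by −6.41 to −7.36, cupincin by −4.65 to −5.83, 1Dg0003136 by −4.03 and the At2g28490 kind by −2.42 to −3.82. Within AC Morgan all 10 were called, against 12.1% of all genes, and within CDC Morrison 6, against 11.4%, namely the 63 kDa and cupincin copies, while 4Cg0002993 and 5Ag0000701 turned direction there (0.13 and 0.24, not called). That of 4Cg0002993 was also not called without CDC Morrison endosperm 48 h replicate 3 (−2.15, adjusted p = 0.06371) or with limma on the deposited values (−0.10, 0.7737). At 48 h all 10 genes were lower in embryo than in endosperm, with differences of −3.11 ± 0.71 to −9.88 ± 0.76, against 25.6% of all genes. Within CDC Morrison 8 were called at 48 h, against 18.8% of all genes, and 4Cg0002993 and 5Ag0000701 were not (−0.71 and −0.63, edgeR adjusted p = 0.494 and 0.3388).

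**Figure D3:**
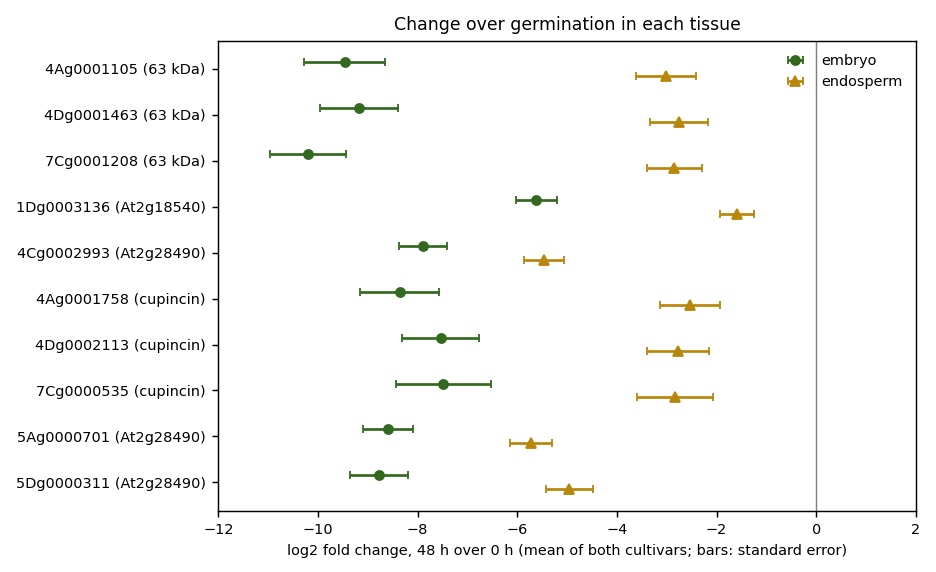
Change of each storage globulin gene from 0 to 48 h in embryo (circles, upper) and endosperm (triangles, lower), as log2 fold change over the mean of both cultivars with standard errors. Every embryo value lies left of its endosperm value, with the widest gap for 7Cg0001208 (−10.20 and −2.84) and the narrowest for 4Cg0002993 (−7.89 and −5.46).

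Other gene groups were tested over the same 48 h, in which 40.2% of all genes were called higher and 27.7% lower in embryo, and 29% higher and 24.9% lower in endosperm. Over 48 h all 9 oleosins fell in both tissues, with a median of −8.49 in embryo and −3.80 in endosperm, and all 9 fell more in embryo. LEA genes fell in 21 of 28 in embryo (median −6.36) and 24 of 28 in endosperm (−3.34). 12S globulin transcripts fell in 34 of 42 in embryo (−7.62) and 35 of 42 in endosperm (−1.95), against medians over all genes of 0.31 in embryo and 0.13 in endosperm. Genes for proteases of the types that degrade globulins, cysteine proteinases, legumains and cathepsin B, rose in 64 and fell in 18 of 96 tested in embryo (median 1.52), and rose in 43 and fell in 16 in endosperm (0.90). The 23 alpha-amylase genes, a mark of the aleurone and scutellum response, summed to 39.4 to 54.4 CPM at 0 h and 781 to 2727 CPM at 48 h in embryo, and to 30.4 to 36.9 CPM at 0 h and 3285 to 13291 CPM at 48 h in endosperm.

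Over the mean of the 5 times, 1 of the 10 genes was called lower in CDC Morrison in germinating embryo, against 13.2% of all genes. In endosperm 3 of the 10 were called lower, against 16.8%. None was called higher in either tissue, and the embryo count did not exceed the share over all genes. Same-numbered libraries of CDC Morrison embryo deviated together in all 10 pairs of times (lowest r 0.155), so the 15 libraries averaged are not independent. In embryo 3 of the 10 genes were called with the replicate number as a block, 6 with limma on the deposited values and 2 with DESeq2. The C copy of cupincin, 7Cg0000535, was lower in CDC Morrison (−1.62 ± 0.48, edgeR adjusted p = 0.006703), where 13.2% of all genes were called lower. Its dry embryos read 20.6, 450 and 486 CPM in CDC Morrison and 553, 646 and 527 CPM in AC Morgan, and at 48 h 0.0866, 1.10 and 1.90 CPM in CDC Morrison and 6.14, 5.29 and 4.77 CPM in AC Morgan. All CDC Morrison libraries lay below all AC Morgan libraries at both times, with replicate 1 far below the other two, and without the CDC Morrison replicate 1 libraries the difference was −1.04 and still called. In endosperm all 3 copies of the At2g28490 kind were lower in CDC Morrison, with −0.90 ± 0.23 (4Cg0002993), −0.78 ± 0.22 (5Ag0000701) and −0.81 ± 0.25 (5Dg0000311), with adjusted p of 0.001544, 0.004181 and 0.009244 and 16.8% of all genes called lower, though 4Cg0002993 was not called with limma (−0.25, 0.09116). The libraries parted at the late times: at 24 h the CDC Morrison libraries of 5Ag0000701 read 18.1, 18.3 and 32.8 CPM and those of AC Morgan 52.8, 67.3 and 62.8 CPM, with no overlap, while at 0 h they overlapped.

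The cupincin copies also differed in their share of the class, which is given as a description without a test, since it was chosen after its values were seen. In endosperm the D copy, 4Dg0002113, took 30.0 to 42.7% of the cupincin counts in the 15 CDC Morrison libraries and 27.0 to 29.8% in the 15 AC Morgan libraries, without overlap. In AC Morgan embryo its share was 27.8 to 29.5% at 0, 3 and 6 h, and 49.2, 48.1 and 47.9% at 24 h, with 63.4, 72.1 and 59.3 CPM of the D copy. Over all 15 AC Morgan embryo libraries it reached up to 53.6%. In CDC Morrison embryo the share was 30.8 to 39.3% over the 14 libraries with at least 100 cupincin counts. In CDC Morrison whole grain the libraries fell apart within 4 of the days listed here. The share was 25.3, 38.3 and 24.8% at 15 DPE, 41.7, 19.1 and 22.7% at 20 DPE, 27.1, 41.9 and 25.1% at 30 DPE, and 27.8, 26.8 and 41.4% at 35 DPE. At 40 DPE the libraries lay close together, at 42.2, 42.5 and 42.7%. Values of 25 DPE are not listed. Over all 19 CDC Morrison grain libraries with at least 100 cupincin counts the share was 19.1 to 42.7%. AC Morgan grain showed no value above 28.9%. How alike the copies are in sequence was not analysed. Reads that fit more than 1 copy would be divided between the copies by the quantification against 1 reference line. The split may therefore be less certain than the sum, and the part of this in the shares was not tested.

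**Figure D4:**
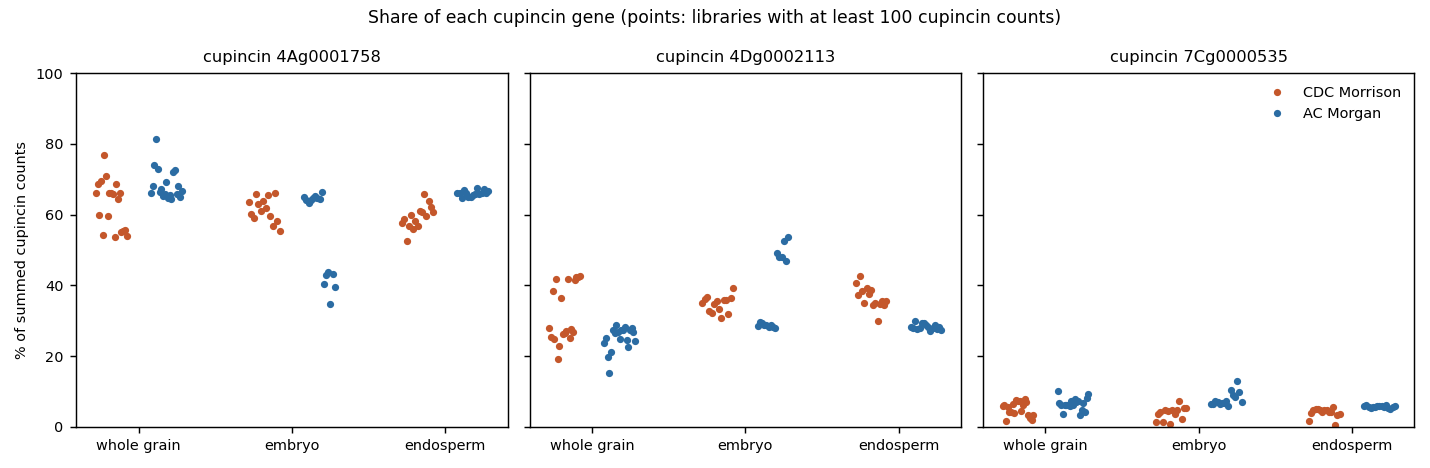
Share of each cupincin gene in the summed cupincin counts, in percent, for every library with at least 100 such counts, by tissue and cultivar. In the 4Dg0002113 panel CDC Morrison grain forms a lower and an upper cloud (up to 42.7%), AC Morgan embryo an upper cloud (up to 53.6%), and in endosperm CDC Morrison lies above AC Morgan.

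Among 15382 genes with a mean of at least 10 CPM in each set, the 5 outside the chosen set whose group means most resembled the summed level of the chosen genes (Pearson's r of log2 CPM over the 16 grain groups and over the 20 germination groups, ranked by the mean of both) were 1Cg0001214 and 1Ag0000611, both matched to the tonoplast aquaporin TIP3-1, 3Cg0002753, matched to a heavy-metal-associated isoprenylated protein, and 7Ag0002549 and 7Dg0001546, matched to defensin-like protein 1. Their mean r was 0.983 to 0.988. Of the storage globulins themselves the 63 kDa and cupincin copies had a mean r of 0.983 to 0.998, 1Dg0003136 of 0.968 and the At2g28490 kind of 0.917 to 0.956. Each of these genes is itself part of the summed level, and the 63 kDa and cupincin copies make up the larger part of it. Their high r was thus in part given in advance. All r values here are descriptions over groups that share tissues and times.

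The gene that the name search added, the Plastoglobulin-1 match 1Dg0002926, is given apart from the storage globulins. Its counts were present in AC Morgan and all but absent in CDC Morrison. Whole grain of CDC Morrison had 4 counts of it in 23 libraries, 2 of them above 0, and AC Morgan had 4398 counts in 24 libraries. The ratio of AC Morgan to CDC Morrison was 959 (95% counting interval 374 to 3522), which covers counting error only. Reads of both cultivars were quantified against 1 reference line, and the part of this in the ratio was not tested. In embryo there were 6 counts in CDC Morrison and 1610 in AC Morgan (15 libraries each), in endosperm 5 and 854. CDC Morrison libraries did not exceed 0.121 CPM in any tissue, and AC Morgan libraries stood at 4.35 to 12.9 CPM in grain, 5.62 to 11.7 CPM in embryo and 1.52 to 13.4 CPM in endosperm. It was called lower in CDC Morrison on each of the 8 days and in both germinating tissues by edgeR, and no fitted fold is given because many groups were at 0. In AC Morgan endosperm it rose by 1.70 ± 0.37 from 6 to 48 h (adjusted p = 0.000397), with 13.4, 10.7 and 12.7 CPM at 48 h against 5.58, 2.59 and 2.71 CPM at 6 h.

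**Figure D5:**
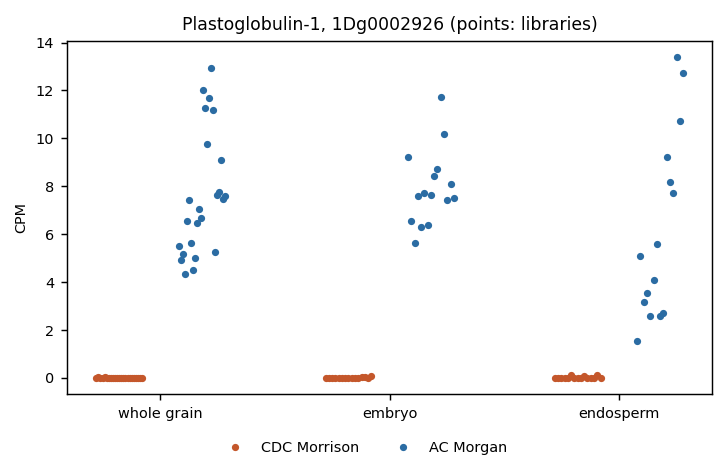
CPM of 1Dg0002926, the Plastoglobulin-1 match, in every library by tissue and cultivar. CDC Morrison libraries lie at or next to 0 in whole grain, embryo and endosperm, and AC Morgan libraries between 1.52 and 13.4 CPM.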

How the data were processed

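RNA was sequenced from 48 whole-grain and 60 germination libraries (stranded, poly(A)-selected, single-end). Per the submitters' notes, the authors trimmed reads with Trim Galore, checked them with FastQC, removed rRNA with Bowtie2 and quantified transcripts of the OT3098 oat reference with Salmon, and the deposited tables hold estimated counts per gene. No source used here gives their versions. The authors also deposited normalized values on a log2-like scale, made for grain with the variance-stabilizing transformation of DESeq2. For the germination table that transformation is assumed from its values.

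Counts were rounded. Genes with at least 5 counts in at least 5% of libraries were kept (62030 in 47 grain libraries, 62447 in 60 germination libraries). Each set was fitted once with its 16 or 20 groups by edgeR 4.0.16 quasi-likelihood with TMM scaling in R 4.3.3, and p-values were adjusted by Benjamini-Hochberg over all genes kept. On simulated counts, 87% of 200 genes changed by 2 on the log2 scale were called for 25 against 15 DPE (60755 genes simulated). For embryo at 6 against 0 h 90% were called (60296 genes). Unchanged genes made up 5.43 and 4.26% of the calls. These rates describe the simulated counts only, where 200 genes were changed in each comparison. In real grain 17.1% of all genes were called higher and 15.2% lower at 25 than at 15 DPE. How far the rates carry over to the storage globulin genes, whose replicates often differed widely, was not tested. Replicates varied by at least 2.52 times counting noise, so no pair was treated as 1 library. Alternatives were RLE and library-size scaling, other filters, DESeq2 1.42.0, limma 3.58.1 on the deposited log2-like values, a replicate block, a fold minimum of 2, each library left out, and all 48 grain libraries.

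The genes, the other gene lists and the comparisons were chosen with earlier results of these data known. Values are given for the 8 storage globulins with the highest mean CPM in each set and, per comparison, for the called genes with the largest and smallest change. Other values of 4Cg0002993, 5Ag0000701 and 1Dg0002926 were chosen after they had been seen. Counting intervals and totals cover counting error only.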

Additional observations from a re-analysis of the deposited data

Results flagged for a closer look

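The change over 48 h of germination differed between embryo and endosperm, by the edgeR test of the difference itself, for each of the 10 storage globulin genes. The embryo change minus the endosperm change was −6.44 for 4Ag0001105, −6.41 for 4Dg0001463 and −7.36 for 7Cg0001208, the 63 kDa kind. For cupincin it was −5.83 for 4Ag0001758, −4.77 for 4Dg0002113 and −4.65 for 7Cg0000535. The At2g28490 kind had −2.87 for 5Ag0000701, −3.82 for 5Dg0000311 and −2.42 for 4Cg0002993, and 1Dg0003136 had −4.03. These values are over the mean of both cultivars. Within CDC Morrison alone 6 of the 10 were called, and 4Cg0002993 and 5Ag0000701 turned direction (0.13 and 0.24, not called). With limma on the deposited values 4Cg0002993 had −0.10 and was not called.

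In the library left out of the grain fit, CDC Morrison 10 DPE replicate 1, the 10 genes summed to 3135 CPM by library size, with 2184611 counts in all, against 1.99 and 2.42 in replicates 2 and 3. Its 10 most abundant genes took 17.4% of its counts, against 1.51 and 1.61%.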

How the results depend on the processing

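Counts here are over all 11 genes chosen by name. They stayed within 1.5 times the reported count in 166 cases and moved further in 18. Over the 10 storage globulins alone these were 155 and 29. For 40 against 25 DPE (4 called) the count was 1 within CDC Morrison alone, 1 with all 48 grain libraries, 2 with limma on the deposited values, and 1 to 4 without 1 replicate. For cultivar differences on single days (9 called) it was 17 with all 48 libraries and 8 to 10 without 1 replicate. Of the 10 alone (1 called) it was 9 with all 48 libraries, 5 with DESeq2, 2 with limma, 0 with the replicate block and 0 to 2 without 1 replicate. For their mean over 8 days (2 called) it was 8 with all 48 libraries, 1 with a fold of at least 2, and 1 to 3 without 1 replicate, and of the 10 alone (1 called) 7, 0 and 0 to 2, with 2 by DESeq2. The interaction of cultivar and day (0 called by edgeR, 0 by DESeq2) gave 9 with all 48 libraries and 1 with limma. Dry embryo against dry endosperm (6 called) gave 11 with limma and 4 to 8 without 1 replicate. Embryo at 6 against 0 h (10 called) gave 6 within AC Morgan alone. Endosperm at 6 against 0 h (0 called) gave 1 with limma and 2 without the 10 replicate 1 libraries of CDC Morrison. The tissue difference over 48 h (10 called) gave 6 within CDC Morrison alone and 9 to 10 without 1 replicate. Cultivars in embryo (2 called) gave 7 with limma and 4 with the replicate block, and in endosperm (4 called) 1 with a fold of at least 2. Of the 10 alone, embryo (1 called) gave 6 and 3, and 2 with DESeq2, library-size scaling or without the CDC Morrison replicate 1 libraries, and endosperm (3 called) gave 0 with a fold of at least 2. The cause of these shifts was not tested.

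Among single genes 975 values kept direction and call, 45 kept direction and lost the call, and 2 turned round: the tissue difference within CDC Morrison alone was 0.13 for 4Cg0002993 and 0.24 for 5Ag0000701 (edgeR adjusted p = 1.0 and 0.9226). Of the fits with 1 library left out, only those with the lowest and the highest difference per gene enter these totals. Calls lost in other such fits are therefore not among the 45. With the replicate number as a block, 7Cg0001208 at 15 DPE was no longer called (2.25, edgeR adjusted p = 0.05542). The numbers pair no samples by the labels, and in 43 of 310 group pairs all same-numbered libraries deviated together, 10 of them the 10 pairs of CDC Morrison embryo groups. Library-size scaling moved the median of all genes by −1.12 for 15 against 5 DPE and by 0.57 for dry embryo against endosperm, where cupincin 4Ag0001758 and 4Dg0002113 then lost their calls (−0.97 and −1.10, adjusted p = 0.1312 and 0.08974). The subset without the CDC Morrison replicate 1 libraries and the single-cultivar values were chosen after seeing the data. Libraries were left out only among the groups compared. The lowest germination total, 3895703 counts, was that of AC Morgan embryo 3 h replicate 1, where low genes are least precise.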
